A study of Caenorhabditis elegans with 2 samples.

Results

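SEA-2 binding was examined at intergenic sites far from gene starts, in whole young adult Caenorhabditis elegans. These are candidate peaks of the pooled ranked list of a chromatin immunoprecipitation sequencing (ChIP-seq) experiment whose summit, the base of highest signal, met 3 conditions. The summit lay in no protein-coding gene body. It lay in no window of 1000 bp upstream to 200 bp downstream of a protein-coding start. It was over 500 bp from tRNA, snoRNA and snRNA genes and from pseudogenes, in the Ensembl annotation of WBcel235. Of the 82563 candidates 14302 met this rule, and 67 of these were among the 453 peaks of the authors' optimal thresholded list. Close summits within 200 bp were then counted once, which left 66 distinct selected intergenic peaks of 14011 distinct intergenic candidates, and 445 distinct selected peaks of 80944 distinct candidates in all.

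The animals were of strain OP586, which carries an integrated sea-2::TY1 EGFP 3xFLAG transgene with an unc-119(+) rescue marker in the unc-119(tm4063) mutant background. They were hatched into starvation after bleaching, which synchronises larvae, and were collected as young adults at 64 hours. Both biological replicates carry the same transgene and mutation and form 1 group, so no condition was compared. The labels list no mutation of the native sea-2 gene, the sex was not collected, and the precipitation used an antibody to GFP per the description, although the antibody label names sea-2. Whole animals were used, so a signal cannot be placed in a tissue. The depth of sequencing is unknown, and the deposited signal is the authors' peak caller value, whose scale and normalisation the labels and files do not state.

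SEA-2 has zinc fingers and belongs to the autosomal signals of worm sex determination, which act against the X-linked signals that repress xol-1. It is also known to bind RNA and to regulate the heterochronic gene lin-28. Worm genes are closely spaced, and regulatory elements usually lie next to the genes they act on, so the spaces between genes hold enhancers, non-coding RNA genes, gene ends, transposon remnants and tandem repeats side by side. A tandem repeat is a unit repeated head to tail, and an interspersed repeat is a unit with copies at distant places.

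The sequences of 3 groups of selected peaks show what the intergenic set holds, and they come from the WBcel235 reference genome of RefSeq, which is the ce11 assembly of the files. Each is centred on the summit, with 100 bases on either side. The first group is the strongest peaks on V, X, III and II and the peak beside mir-51 on IV. They have no 31-base word that occurs elsewhere in the nuclear genome, and the capitals mark each CG dinucleotide.
Peak in linc-128, chrV:1151365-1151565, plus strand: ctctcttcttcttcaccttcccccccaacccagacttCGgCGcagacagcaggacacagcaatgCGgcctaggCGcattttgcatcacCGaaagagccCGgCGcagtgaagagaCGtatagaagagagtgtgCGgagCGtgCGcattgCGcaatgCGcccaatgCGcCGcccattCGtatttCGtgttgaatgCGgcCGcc
Peak between W04G3.11 and W02H3.3, chrX:11094088-11094288, plus strand: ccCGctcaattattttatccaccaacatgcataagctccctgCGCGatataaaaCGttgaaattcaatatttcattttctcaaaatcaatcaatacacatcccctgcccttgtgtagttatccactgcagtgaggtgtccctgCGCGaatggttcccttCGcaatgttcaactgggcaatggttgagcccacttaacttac
Peak between sup-26 and R10E4.3, chrIII:4282127-4282327, plus strand: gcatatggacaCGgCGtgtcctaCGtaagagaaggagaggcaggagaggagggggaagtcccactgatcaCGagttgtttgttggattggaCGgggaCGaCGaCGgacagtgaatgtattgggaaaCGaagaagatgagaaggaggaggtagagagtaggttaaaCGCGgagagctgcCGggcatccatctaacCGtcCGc
Peak between srw-60 and nhr-88, chrII:2974033-2974233, plus strand: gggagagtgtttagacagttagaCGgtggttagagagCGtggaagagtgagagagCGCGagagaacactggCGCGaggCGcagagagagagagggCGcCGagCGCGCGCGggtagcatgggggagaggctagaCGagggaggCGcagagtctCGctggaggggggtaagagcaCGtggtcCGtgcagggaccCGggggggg
Peak beside mir-51, chrIV:11026099-11026299, plus strand: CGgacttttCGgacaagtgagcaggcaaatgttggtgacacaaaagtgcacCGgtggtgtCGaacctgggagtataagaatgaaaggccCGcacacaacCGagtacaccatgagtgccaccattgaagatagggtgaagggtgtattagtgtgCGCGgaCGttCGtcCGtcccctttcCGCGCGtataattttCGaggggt

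The second group is an interspersed repeat, shown because 3 selected intergenic peaks far apart on chromosome V carried copies of one another. Capitals mark bases covered by 31-base words that occur more than once in the nuclear genome, and each sequence is on the strand that aligns it with the first.
Peak at ent-3 and K02E11.10, chrV:14237540-14237740, plus strand: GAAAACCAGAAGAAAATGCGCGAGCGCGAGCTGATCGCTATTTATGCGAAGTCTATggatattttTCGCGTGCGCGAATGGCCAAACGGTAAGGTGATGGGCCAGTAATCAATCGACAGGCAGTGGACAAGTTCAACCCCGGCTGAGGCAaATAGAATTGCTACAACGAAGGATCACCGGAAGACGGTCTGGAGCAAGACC
Peak at F57A10.2 and F57A10.4, chrV:15767448-15767648, minus strand: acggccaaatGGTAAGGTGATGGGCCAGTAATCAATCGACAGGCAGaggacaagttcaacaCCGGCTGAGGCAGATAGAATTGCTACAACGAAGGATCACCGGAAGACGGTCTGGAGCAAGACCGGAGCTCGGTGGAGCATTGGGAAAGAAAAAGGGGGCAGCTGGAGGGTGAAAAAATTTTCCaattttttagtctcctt
Peak at ftn-1 and F19F10.3, chrV:7548627-7548827, minus strand: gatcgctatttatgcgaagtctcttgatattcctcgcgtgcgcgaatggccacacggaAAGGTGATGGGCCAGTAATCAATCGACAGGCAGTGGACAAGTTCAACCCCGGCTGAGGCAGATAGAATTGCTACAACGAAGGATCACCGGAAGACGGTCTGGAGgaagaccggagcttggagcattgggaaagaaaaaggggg

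The last group is tandem repeats, with capitals as in the second group. Matched against itself, the window at Y102A11A.1 and F49H12.7 agreed best at a shift of 80 bases, where 96.7% of bases matched. The window in the gap of C36E6.8 agreed best at a shift of 84 bases, with 78.6% matching, and the one in the gap of Y51H7C.12 at 17 bases, with 69.6% matching.
Peak between C36E6.8 and C36E6.2, chrX:17442649-17442849, plus strand: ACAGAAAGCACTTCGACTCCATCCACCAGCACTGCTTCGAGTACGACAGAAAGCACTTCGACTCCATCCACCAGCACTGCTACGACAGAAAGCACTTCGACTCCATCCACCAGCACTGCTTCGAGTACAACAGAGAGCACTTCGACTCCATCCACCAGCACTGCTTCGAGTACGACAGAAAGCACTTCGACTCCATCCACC
Peak between Y51H7C.12 and Y51H7C.13, chrII:1457930-1458130, plus strand: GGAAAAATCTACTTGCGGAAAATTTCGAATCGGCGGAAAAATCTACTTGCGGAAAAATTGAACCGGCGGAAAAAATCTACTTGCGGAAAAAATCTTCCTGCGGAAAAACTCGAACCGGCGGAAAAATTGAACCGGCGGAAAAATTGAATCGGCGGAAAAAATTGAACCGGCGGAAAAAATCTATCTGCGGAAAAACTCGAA
Peak between Y102A11A.1 and F49H12.7, chrX:2057934-2058134, plus strand: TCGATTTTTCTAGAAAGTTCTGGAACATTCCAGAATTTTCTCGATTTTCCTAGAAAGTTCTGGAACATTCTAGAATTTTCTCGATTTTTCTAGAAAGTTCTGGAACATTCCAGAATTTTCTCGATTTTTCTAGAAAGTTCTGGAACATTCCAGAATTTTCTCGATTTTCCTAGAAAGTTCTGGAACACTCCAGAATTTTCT

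Selection at intergenic sites was about as frequent as over all candidates. The optimal list took 66 of 13954 intergenic candidates (0.473%, exact 95% interval 0.366 to 0.601%), against 0.55% of all 80868 candidates. These denominators leave out candidates that passed the authors' reproducibility threshold but were in neither pooled thresholded list. The conservative list, the authors' other pooled list, took 63 intergenic candidates (0.451%), against 0.529% of all. In the replicates' own lists, replicate 1 took 27 of 8630 (0.313%), against 0.324% of all its candidates, and replicate 2 took 20 of 8568 (0.233%), against 0.236%. All 4 backgrounds lay within the exact intervals of the intergenic shares. The intervals cover counting error only, since peaks of the same animals are not replicates.

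The strongest selected intergenic peak lay on chromosome IV between C46C2.7 and wnk-1, which encodes a WNK kinase of osmotic regulation. It spanned chrIV:9196275-9196578 with a pooled signal of 248, and its signal was 153 in replicate 1 and 84.8 in replicate 2. Its summit was 351 bp past the end of C46C2.7, 1603 bp from the start of that gene and 3676 bp from the start of wnk-1. The ncRNA genes C46C2.12 and C46C2.11 lay 386 and 387 bp from the summit. It overlapped a thresholded peak in each replicate's own list.

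The strongest peak on chromosome I spanned chrI:10462594-10462897 between Y106G6H.9 and duo-3, with a pooled signal of 209, 98.1 in replicate 1 and 116 in replicate 2. Its value was the higher in replicate 2. Its nearest protein-coding start, that of Y106G6H.9, was 7068 bp away. The summit window had 31 other copies in the genome.

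The strongest on chromosome V lay inside the long intergenic non-coding RNA gene linc-128, 559 bp downstream of the gene's start and 4806 bp from cmd-1, the calmodulin gene. It spanned chrV:1151313-1151616, had a pooled signal of 199 and nearly equal values of 102 in replicate 1 and 103 in replicate 2. No 31-base word of its window was repeated, and its GC content was 59.2%.

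The strongest on X spanned chrX:11094036-11094339 between the converging genes W04G3.11 and W02H3.3, with a pooled signal of 184, 120.3 in replicate 1 and 67.5 in replicate 2. A peak at chrV:14055099-14055402, 588 bp past F58D12.1, reached 177 in the pool, 111 in replicate 1 and 63.6 in replicate 2. Both windows were free of repeated 31-base words. Chromosome III was led by the peak at chrIII:4282075-4282378 upstream of sup-26, which encodes an RNA-binding protein, with 137 in the pool, 62.3 in replicate 1 and 75.1 in replicate 2. Chromosome II was led by the peak at chrII:2973981-2974284, 2506 bp from the start of the nuclear hormone receptor gene nhr-88. Its signal was 118 in the pool, 74.9 in replicate 1 and 44.4 in replicate 2, and its GC content was 66.2%.

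The other peaks among the 15 strongest had pooled signals between 119 and 148. On IV they were the peak 376 bp past the bZIP gene zip-11 (148), the peak between T04C4.3 and fnip-2 (142) and the peak between alh-3 and hrg-5 (119). On V they lay near T27C5.10 (144), 1598 bp from ent-3, a nucleoside transporter gene (132), between exc-14 and pqn-51 (127), and near H37A05.4 (123). On X they lay in the gap of C36E6.8 (134) and 184 bp past T27A8.7 (121). All 15 were also in the conservative list. Within the whole set 46 of 66 were in the conservative list, against 280 of 379 other selected peaks (73.9%).

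**Figure D1:**
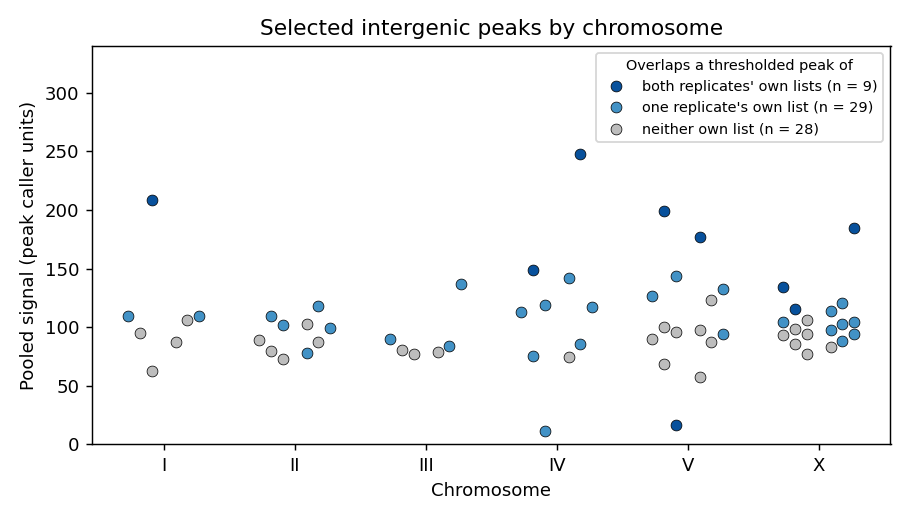
Pooled signal in the authors' peak caller units (vertical axis) of the 66 distinct selected intergenic peaks on each chromosome (horizontal axis), 1 point a peak, shaded by whether it overlaps a thresholded peak in the replicates' own lists. The points with signals of 16.1 on V and 11.1 on IV overlap a stronger selected peak, and the 9 peaks backed by both replicates include those at 248, 209 and 199.

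Pooled signal had a median of 97.7 over the 66 selected intergenic peaks and ranged between 11.1 and 248. It was 24.6 in the median unselected intergenic candidate, a difference that the selection itself makes. The other selected peaks had a median of 93.6. The 2 lowest values were 16.1 on V between F58D12.1 and F58D12.3 and 11.1 on IV between irld-55 and Y37A1B.7. They belonged to peaks that overlapped a stronger selected peak and shared its replicate candidates. Apart from these the lowest was 57.7, between srab-16 and nhr-270.

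Of the 66 selected intergenic peaks, 9 overlapped thresholded peaks of both replicates' own lists (13.6%, 6.43 to 24.3%). A further 18 overlapped one of replicate 1 only and 11 one of replicate 2 only, and 28 (42.4%, 30.3 to 55.2%) overlapped neither. Of the other selected peaks, 16.1% overlapped both and 56.2% neither. The 6 strongest were all backed by both replicates. Without the 2 peaks that overlap a stronger one, 8 of 64 (12.5%) overlapped both.

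Signal in replicate 1 had a median of 54.9 and ranged between 24.6 and 153, while in replicate 2 it had a median of 44.5 and ranged between 26.3 and 116. The ratio of replicate 1 to replicate 2 had a median of 1.35 and ranged between 0.502 and 2.86. That of the other selected peaks had a median of 1.29, and unselected intergenic candidates had one of 1.17. Replicate 1 was higher at 47 of 65 peaks, and the peak between F31D4.8 and unc-80, which encodes a subunit of a sodium leak channel, had no candidate in replicate 1. Across the 65 peaks the values of the replicates had a rank correlation (Spearman's rho) of 0.247, and Pearson's r was 0.349 after a log10 transform. The points are peaks of the same libraries that were selected on the pooled signal, and the 2 that overlap a stronger peak repeat its replicate values.

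**Figure D2:**
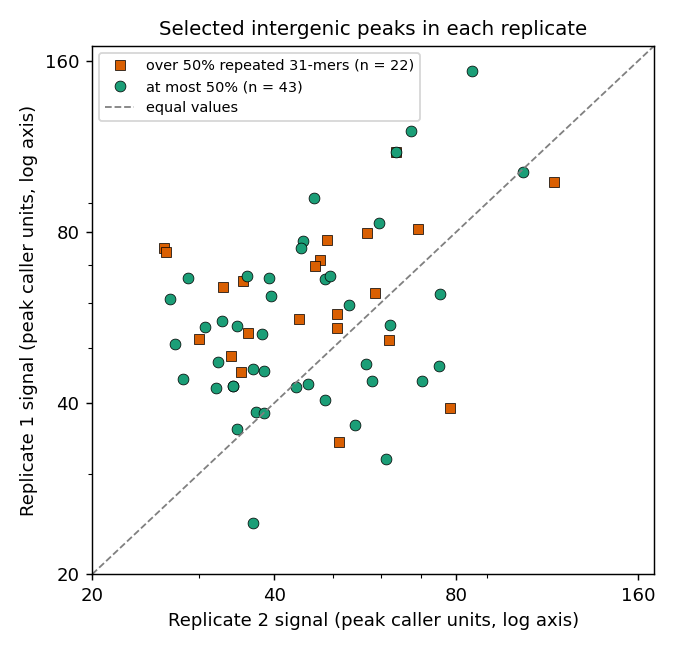
Signal of each selected intergenic peak in replicate 2 (horizontal axis) and replicate 1 (vertical axis), in the authors' peak caller units on log axes, with 22 peaks over 50% repeated and 43 others. The dashed line marks equal values, and 47 of the 65 points lie above it.

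At the edge of selection, the last 3 intergenic peaks inside had an irreproducible discovery rate (IDR), the authors' measure of how poorly a rank repeats, of 0.00958, 0.00944 and 0.00937. These lay in the gap of Y51H7C.12, between the hypoxia-inducible factor gene hif-1 and Y44A6D.1, and near ZK673.1, with pooled signals of 102, 68.8 and 73.0. The peak of 68.8 was 99 bp from Y44A6D.1 and 1981 bp from hif-1. The nearest 3 outside the threshold of 0.01 had 0.0102, 0.0106 and 0.0109. They lay near C14B9.10, between basl-1 and daf-4, which encodes a TGF-beta receptor, and between dmd-8 and wago-10. Their signals were 75.7, 77.2 and 78.0, so signal did not order the peaks across the edge. The peak at daf-4 was in the conservative list. These IDR values are from the pooled ranked list of 81415 candidates, not the list used for the member rule. In the latter the peaks near Y44A6D.1 and ZK673.1 did not pass 0.01, and the peak at daf-4 did.

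Repeated sequence was more frequent at selected intergenic peaks than at unselected ones. More than 50% of the 31-base words within 100 bp of the summit were present more than once in the nuclear genome at 22 of 66 selected intergenic peaks (33.3%, 22.2 to 46.0%). This held for 10.7% of 13888 unselected intergenic candidates (10.2 to 11.2%) and for 7.39% of 379 other selected peaks (4.97 to 10.5%). No repeated word was found at 32 of the 66 (48.5%), against 70.9% of unselected intergenic candidates. Bases soft-masked as repeats in the reference covered over 50% of the window at 13 of the 66 (19.7%, 10.9 to 31.3%). This held for 25.7% of unselected candidates, which lay within the interval, and for 7.92% of other selected peaks. The second measure thus showed no excess over unselected candidates. Reads from near-identical copies cannot be assigned with certainty, and the labels and files do not state how the authors treated them, so the signal at a repeated peak is uncertain.

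The repeated peaks spanned the strengths of the set. Median signal was 104 at the 22 repeated peaks and 94.3 at the other 44. Of the 22 repeated peaks 16 were in the conservative list, against 30 of the other 44. Both replicates' own lists backed 4 of 22 repeated peaks and 5 of the other 44. The 4 include the peak of 16.1 on V, whose replicate values are those of the stronger peak it overlaps, a peak without repeated words. Mean GC content was 47.8% ± 6.86 (SD, n = 22 peaks) and 50.7% ± 6.95 (SD, n = 44 peaks). A further non-coding gene lay within 500 bp of 1 of 22 repeated peaks (4.55%, 0.115 to 22.8%) and of 14 of the other 44 (31.8%, 18.6 to 47.6%). These intervals overlap. The 14 include the 2 overlapping peaks between irld-55 and Y37A1B.7, and 2 peaks near the same ribosomal RNA gene.

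A search of the genome for each selected window, with at least 85% identity over at least 100 bp, found another copy for 29 of the 66 peaks. For 24 of these most copies lay over 20 kb away or on another chromosome, for 4 most lay within 20 kb, and the peak near gst-11 had 1 copy of each kind. A copy lay at another selected peak for 16 of the 29. There were 6 families in which selected intergenic peaks carried copies of one another, with 15 of the 66 peaks among them. At the far end 3 peaks had over 100 other copies, namely the peak at T02H6.3 with 211, the one at Y102A11A.1 with 188 and the one at Y54F10AL.1 with 127.

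Not every copy of a family was selected, even at near identity. On IV, the peak between C46C2.7 and wnk-1 and the peak past zip-11 shared a stretch of 130 bases at 99.2% identity. The window at C46C2.7 and wnk-1 occurred at 9 places including itself, of which 5 were selected peaks. Signal there was 248 at the peak itself, 176 on II, 152 at a second place on IV, 148 near zip-11, and 105 inside mod-5, a serotonin transporter gene on I. The 3 copies at unselected candidates had 21.1 on V at 99.2% identity, 65.7 in xpd-1 on III at 98.5% and 84.1 on IV at 98.5%. The last copy, on II at 93.5% identity, had no candidate. The selected copies were the 5 strongest, but the selection itself favours stronger copies, here and in the families below. Their identities of 97.7 to 99.2% overlapped those of the unselected ones.

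Another family joined 2 peaks on IV and the peak at F40E3.3 and mage-1 on I. On IV they were the peak between miro-1 (4916 bp away) and K08F11.1 (4139 bp) and the peak between tsen-34 (5406 bp) and K08D10.11 (607 bp). Searched with the tsen-34 window, it had 8 places, 4 of them selected. The selected ones had pooled signals of 339, 117, 113 and 109, and the 4 unselected ones had 37.8, 30.9, 28.3 and 22.7. The strongest, also on IV, fell outside the intergenic rule. The unselected copies on V at 28.3 and on I at 22.7 were 100% and 99.3% identical to the tsen-34 window over 136 and 137 bases. In the replicates the copy on V had 22.4 in replicate 1 and 15.1 in replicate 2, while the tsen-34 peak had 51.6 and 61.8.

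The family of the ent-3 peak had 21 places on 6 chromosomes, of which 7 were selected, 12 were unselected and 2 had no candidate. Signal was 94.3 to 132 at the selected places and 25.5 to 86.4 at the unselected ones. Of the selected places 3 are the intergenic peaks printed above. The others include copies inside K08C7.1 on IV, ptr-17 on I and T24H10.5 on II. Searched with the whole window printed for ent-3, the copy at F57A10.2 was 94.5% identical. Searched with the window printed for ftn-1, a ferritin gene, the copy at F57A10.2 was 93.6% identical. The aligned stretches are offset from the summits, so they run past the window printed for F57A10.2. The summit at ent-3 lay inside the non-coding RNA gene K02E11.15, 31 bp from its start.

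Tandem repeats gave several selected peaks in 1 gap. The gap between Y51H7C.12 and Y51H7C.13 on II, 16521 bp long, held 3 selected peaks, with 102, 102 and 79.9. The gap between C36E6.8 and C36E6.2 on X, 11918 bp long, held 2, with 134 and 106. The repeat at Y102A11A.1, with a signal of 97.4, holds repeated GAANNTTC blocks, which are the letters of paired units of a heat shock element. GAANNTTC, which reads the same on both strands, was present at 8 of 66 selected intergenic peaks (12.1%), at 12.7% of unselected ones and at 11.6% of other selected peaks.

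**Figure D3:**
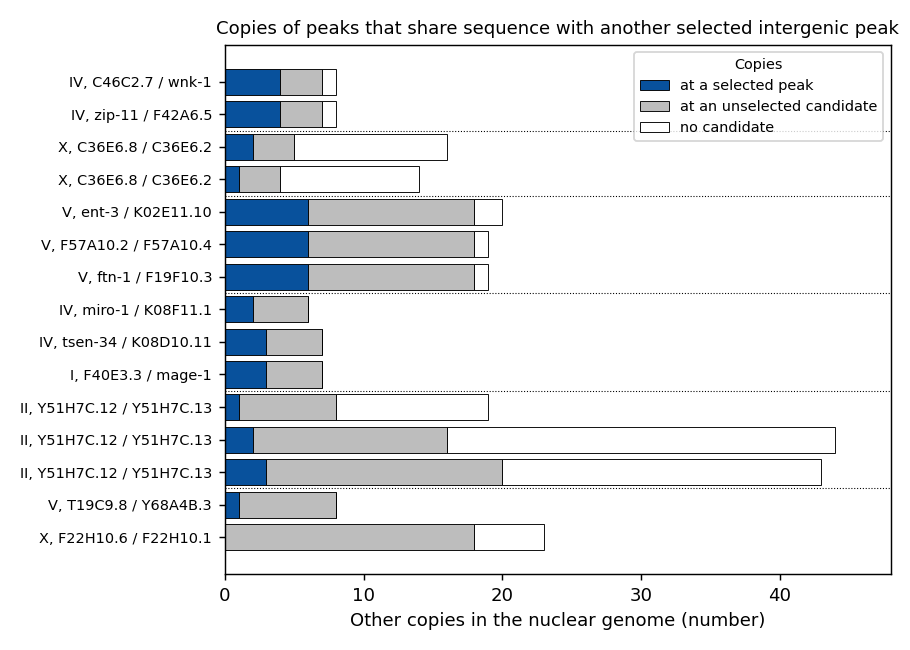
Number of other copies in the nuclear genome (horizontal axis) of the 15 selected intergenic peaks in the 6 shared families, named by chromosome and flanking genes and split by what lies at the copy, with dotted lines between families. Copies at selected peaks make up 4 of 8 for the peak between C46C2.7 and wnk-1 and for that at zip-11, and 6 of 20 for the peak at ent-3.

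Converging neighbours were more frequent at selected intergenic peaks. The flanking protein-coding genes pointed towards each other at 23 of the 66 (34.8%, 23.5 to 47.6%), against 14.7% of unselected intergenic candidates (14.1 to 15.3%) and 17.2% of the other selected peaks, most of which lie in or beside genes. They ran in tandem at 32 (48.5%), against 54.8% of unselected candidates. They pointed apart at 11 (16.7%, 8.62 to 27.9%), against 30.4% of unselected candidates (29.6 to 31.2%). Among the 44 selected peaks that were not mostly repeated, 16 had converging neighbours (36.4%). Examples are the peak between cpg-1, a chondroitin proteoglycan gene, and the bZIP gene atf-7 (77.3) and the peak between gdh-1, a glutamate dehydrogenase gene, and tgt-1 (85.8).

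Gene ends lay within 500 bp of 16 of the 66 summits (24.2%, 14.5 to 36.4%), against 16.01% of unselected candidates, and the interval held the background. The nearest protein-coding start was a median of 2990 bp away and ranged between 720 and 10644 bp, against a median of 2685 bp for unselected candidates. The gap between the neighbouring genes had a median of 6823 bp, against 7459 bp. Another selected peak lay within 5 kb of 17 of the 66 (25.8%, 15.8 to 38.01%), against 4.44% of unselected intergenic candidates and 24.5% of the other selected peaks. The 17 include the 2 peaks that overlap a stronger selected peak, their partners, and the peaks of the tandem repeat gaps on II and X.

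Chromosome X held 18 of the 66 (27.3%, 17.03 to 39.6%), V 15, II 10, IV 10, I 7 and III 6. The share on X was 25.6% among unselected intergenic candidates and 18.5% among the other selected peaks, and both lay within the interval. Cutting each chromosome into 3 equal parts put 27 peaks in the left, 13 in the middle and 26 in the right part. The middle part held 19.7% (10.9 to 31.3%), against 27.4% of unselected candidates.

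The rule leaves out tRNA, snoRNA and snRNA genes, and other non-coding RNA genes lay within 500 bp of 15 of the 66 (22.7%, 13.3 to 34.7%), against 16.8% of unselected intergenic candidates and 28.5% of other selected peaks. The summit was inside such a gene at 8 of the 66 (12.1%, 5.38 to 22.5%), against 4.69% of unselected candidates (4.34 to 5.05%), so intergenic here holds for protein-coding genes only. Of the 15 peaks within 500 bp, 11 were near a gene of the general ncRNA class. The peak between alh-3 and hrg-5 (119 in the pool, 54.9 in replicate 1 and 62.2 in replicate 2) had its summit 87 bp upstream of mir-51, a member of a microRNA family needed for embryonic development, and inside the ncRNA gene F36H1.17. Near T27C5.10 on V, 2 peaks lay in or near the 5S ribosomal RNA gene rrn-4.15. The weaker (95.4) was inside it, 8 bp from its start, and the stronger (144) was 450 bp past its end. In the window of the weaker peak 46.2% of 31-base words were repeated. It had 12 other copies on 1 chromosome, 10 of them without a candidate, so its signal is uncertain. An rRNA gene was within 500 bp of 3 of 13888 unselected candidates. The peak at H37A05.4 (123) lay 95 bp upstream of H37A05.5, and that at C30E1.4 (115.3) 168 bp upstream of C30E1.9. On X, the peak between zmp-5 and C02B4.3 (114) lay 49 bp past C02B4.6. The peak between tnt-3, a troponin gene, and dct-1 (88.2) lay inside the overlapping ncRNA genes C14F5.10 and C14F5.11, and that between gdh-1 and tgt-1 inside ZK829.13.

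Gene families named by their symbols were rare beside the selected intergenic peaks. Nuclear hormone receptor genes flanked 4 of the 66 (6.06%, 1.68 to 14.8%), namely nhr-6, nhr-88 at 2 peaks and nhr-270, against 3.41% of unselected candidates. Chemoreceptor genes flanked 2 (3.03%, 0.369 to 10.5%), srab-16 and srw-60, against 5.28%. Ribosomal protein, hsp or dnj chaperone, histone, collagen, msp, F-box, clec lectin and ceh homeobox genes flanked 0 of 66, which allows a share of up to 5.44% by the exact interval. Unselected candidates were at 1.78% for F-box genes and lower for the others.

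**Figure D4:**
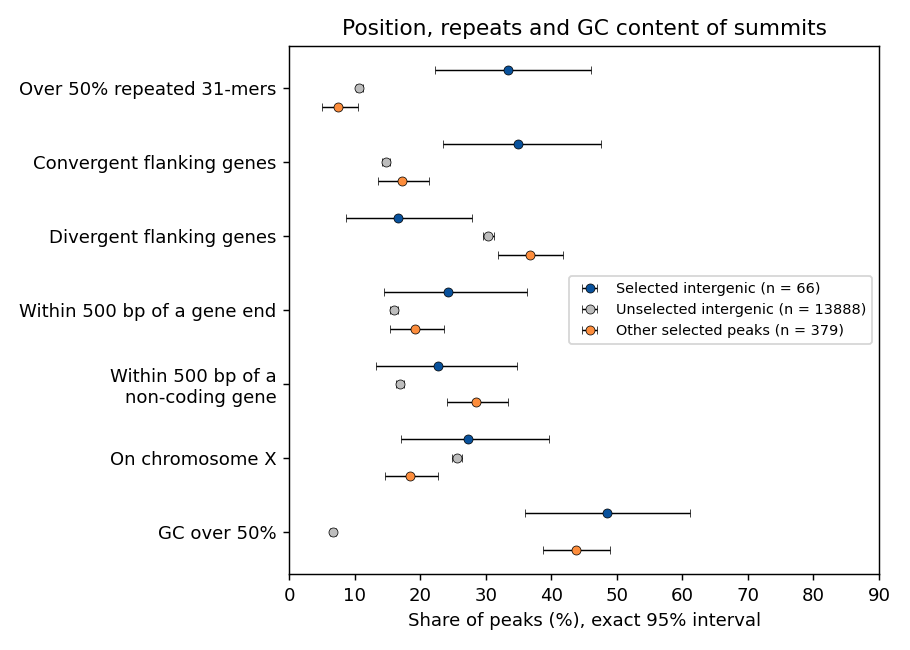
Share of peaks in percent with exact 95% intervals (horizontal axis) for 7 features of position, repetition and GC content (vertical axis), in the 66 selected intergenic peaks, 13888 unselected intergenic candidates and 379 other selected peaks. The intervals of selected and unselected intergenic peaks do not overlap for repeated words, converging and diverging neighbours and GC content, and they overlap for gene ends, non-coding genes and chromosome X.

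Within 100 bp of the summit the mean GC content was 49.8% ± 7.01 (SD, n = 66 peaks) at selected intergenic peaks. It was 38.8% ± 7.20 (SD, n = 13888) at unselected intergenic candidates and 49.0% ± 7.16 (SD, n = 379) at other selected peaks. It was over 50% at 32 of the 66 (48.5%), against 6.71% of unselected candidates and 43.8% of other selected peaks. Windows held a mean of 13.7 CG dinucleotides at selected intergenic peaks, against 7.32 at unselected ones and 13.1 at other selected peaks. The count reached 29 at the peak near H37A05.4 and was 0 at the peaks near gst-11 and Y54F10AL.1. The part of GC content in the signal was not tested.

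**Figure D5:**
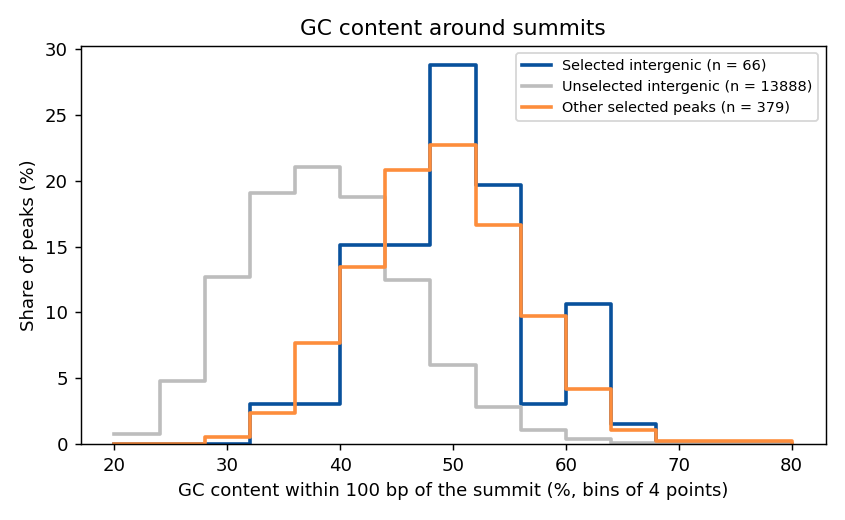
Share of peaks (vertical axis, percent) by GC content within 100 bp of the summit (horizontal axis, percent, in bins of 4 points) for the 66 selected intergenic peaks, 13888 unselected intergenic candidates and 379 other selected peaks. The selected intergenic peaks lie with the other selected peaks, about means of 49.8% and 49.0%, and to the right of the unselected candidates, about a mean of 38.8%.

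Motifs with CG were more frequent, and runs of A less frequent, at selected than at unselected intergenic peaks. On either strand within 100 bp of the summit, CGCG was present at 56.1% of selected intergenic peaks (43.3 to 68.3%), 22.9% of unselected intergenic candidates and 56.5% of other selected peaks. CGCGCA, which contains CGCG, was present at 22.7%, 4.80% and 17.7% of them in the same order. The linc-128 window printed above has no CGCG although it is rich in CG, and the W04G3.11 window holds CGCG at separate places. GAGAGA was present at 25.8% of selected intergenic peaks (15.8 to 38.01%), 13.6% of unselected and 28.2% of other selected ones. AAAAAAAA was present at 3.03% of selected intergenic peaks (0.369 to 10.5%), 19.5% of unselected and 6.07% of other selected ones. TATAAA was present at 7.58% (2.51 to 16.8%), against 16.2% of unselected candidates, which lay within the interval, and 10.3% of other selected peaks.

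The motif GTTCNANNC, the core letters of the internal B box of RNA polymerase III genes, read on both strands, was present at 9 of 66 selected intergenic peaks (13.6%, 6.43 to 24.3%), 7.52% of unselected candidates (7.08 to 7.97%) and 21.4% of other selected peaks, which include those at tRNA genes. Of all words of 6 bases, with both strands pooled, 604 hold a CG, or 29.04% of them. Among the 20 words most in favour of selected over unselected intergenic peaks 18 hold a CG, and 0 of the 20 at the other end do. First was ACGCAG, at 25.8% of selected and 5.57% of unselected intergenic peaks. The word GTAGCA was present at 21.2% of selected intergenic peaks, 4.36% of unselected ones and 5.01% of other selected peaks, the widest excess over the other selected peaks among all such words. These words were ranked on the same peaks and have no test. The 14 selected intergenic peaks with GTAGCA include those at ent-3, F57A10.2 and ftn-1, whose printed windows are copies of one another. Copies of a repeat thus add to its share, and no ranking was made without mostly repeated peaks.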

How the data were processed

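ChIP-seq of 2 biological replicates was deposited as 8 peak lists on ce11, per the labels. For each replicate and the pool the authors deposited ranked and thresholded lists with a signal value, a -log10 q value and an integer score for each peak. The -log10 IDR was read from the ranked lists. The aligner and the peak caller are not stated in the labels or headers, and depth is unknown. All 453 optimal peaks passed an IDR of 0.01 in the pooled ranked list of 81415 candidates, and 328 did so in the list of 82563 used for the member rule. Candidates past that threshold in either list but in neither thresholded list were kept out of the background.

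Summits within 200 bp were merged, selected ones first. Replicate values are those of the strongest overlapping candidate (at least 1 bp) in each replicate's own ranked list. Repeats were counted as 31-base words of the nuclear genome, and copies with BLAST 2.17.0 (at least 85% identity, 100 bp, e-value 1e-10). Annotation was Ensembl release 115. Intervals are exact 95% Clopper-Pearson intervals and cover counting error only. No test was made, since there is 1 group and peaks are not replicates. Counting was checked on simulated data. Computing was done in Python 3.11.15 with pandas 2.3.3, numpy 2.4.6, matplotlib 3.10.9 and scipy 1.17.1.

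The text names the 15 strongest selected intergenic peaks, the strongest on each chromosome, up to 10 near other non-coding genes, 3 on each side of the threshold and the 5 strongest left out of the thresholded lists. Peaks in families of copies and at the ends of a range were named after their values were seen. The members and lists were chosen with earlier results of these data known. Alternatives were the conservative list, stronger peaks, a wider promoter window, unmerged peaks, each replicate's own lists, other distances and windows, and, added later, sets without overlapping or mostly repeated peaks.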

Additional observations from a re-analysis of the deposited data

Results flagged for a closer look

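Among the intergenic candidates, 57 passed an IDR of 0.01 in a pooled ranked list but were in neither thresholded list, and were kept out of the background of unselected candidates. With them counted among the unselected, 0.471% of intergenic candidates were selected. The strongest, at chrX:15810995-15811177 between Y7A5A.7 and Y7A5A.8, had a pooled signal of 2112.54, with 1143 in replicate 1 and 1113 in replicate 2. The strongest selected intergenic peak had 248, and 13 of the 57 exceeded it. The next 4 were 3 peaks in the gap between Y95D11A.1 and Y95D11A.5 on chromosome I, with 453, 356 and 350.2, and a peak between clec-80 and Y54G2A.48 on IV, with 319. That gap on I held 8 of the 57. Over 50% of 31-base words were repeated at 55 of the 57, against 22 of the 66 selected peaks. Mean GC content was 41.9% ± 6.61 (SD, n = 57 peaks), and CGCG was present at 1 of 57. No list of control samples was analysed here.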

How the results depend on the processing

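Of the recomputed values, 97 stayed within their interval or 1 SD and 10 did not. No test was made, so no call could be lost. Keeping peaks at or above the median signal of the optimal list gave 0.287% selected (40 peaks). Leaving out each replicate in turn gave 0.233 to 0.313% selected, with 20 peaks without replicate 1 and 27 without replicate 2, in lists with their own backgrounds. Over the same leave-outs the share near another non-coding gene was 25.9 to 40%, GAGAGA 22.2 to 45% and AAAAAAAA 0 to 3.70%, the value without replicate 1 being 40%, 45% and 0%. Gene ends within 1000 bp in place of 500 bp gave 39.4%. Within 50 bp of the summit, in windows that hold fewer bases, CGCGCA was at 10.6%, TATAAA at 1.52% and CGCG at 40.9%. The share on X was 36.5% with the conservative list. Repeated sequence stayed at 27.0 to 40.7% and converging neighbours at 34.9 to 40% over the conservative list and the leave-outs. Without mostly repeated peaks, an alternative added after seeing the data, converging neighbours were at 36.4% and GC content averaged 50.7%. Each motif share outside its interval rests on 20 peaks or on the narrower window, and the cause of the other differences was not tested. No paired analysis was possible because the series has 1 group. Depth is unknown, so it limits the lists to an extent that cannot be given.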

Other observations

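The conservative list held 17 distinct intergenic peaks that the optimal list lacks, 1 of them between basl-1 and daf-4 with a pooled signal of 77.2. Of the unselected intergenic candidates, 4 overlapped a thresholded peak of a replicate's own list, 1 of them peaks of both replicates. A q value at or under 0.05 was deposited for 32 of the 66 selected intergenic peaks, against 12 of 13888 unselected intergenic candidates.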
